A study of Mus musculus with 2 samples.

Results

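The genes described here encode the subunits of the mitochondrial respiratory chain and of the ATP synthase. They were chosen by symbol, as those starting with Nduf (complex I subunits and the Ndufaf assembly factors), Uqcr (complex III), Cox4 to Cox8 (complex IV) and Atp5 (the ATP synthase, complex V), with Sdha, Sdhb, Sdhc and Sdhd (complex II) and the genes of the mitochondrial genome (mt-Nd, mt-Cytb, mt-Co, mt-Atp), and with symbols marked as pseudogenes left out. Of the 33696 genes listed, 109 met this rule, 96 of them nuclear and 13 mitochondrial. The nuclear members comprised 41 complex I subunits, 8 complex I assembly factors, 4 complex II subunits, 8 of complex III, 18 of complex IV and 17 of complex V, and the 13 mitochondrial members comprised 7 of complex I, 1 of complex III, 3 of complex IV and 2 of complex V. Complexes were assigned by symbol, so Ndufa4, now placed in complex IV, and its relative Ndufa4l2 were counted with complex I throughout. The files use older symbols for some members, such as Atp5g1, Atp5g2 and Atp5g3 for the genes of subunit c. A UMI (unique molecular identifier) was counted for 106 members in the library labelled GFI1 KO and for 107 in the library labelled WT, and Cox8c and Ndufb11b had none in either.

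Complexes I to IV pass electrons from NADH and succinate to oxygen and, all but complex II, pump protons across the inner mitochondrial membrane, and the ATP synthase uses the returning protons to make ATP. Complexes I, III, IV and V are built from subunits of both genomes, so that their assembly needs nuclear messages translated in the cytosol and mitochondrial messages translated in the organelle, whereas complex II is wholly nuclear. Activated and dividing lymphocytes and alveolar macrophages are known for high mitochondrial respiration, and mature neutrophils for having few mitochondria and living largely on glycolysis.

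The series held lung cells of adult mice of both genotypes, GFI1 KO and GFI1 WT, each with 1 library labelled as mouse 1. GFI1 is a transcriptional repressor of blood cell development, and the knockout mice lack it in all tissues. According to the methods, the mice were on a C57BL6/J background, the lungs were perfused and digested with collagenase, and live cells were sorted with Hoechst as the marker of dead cells before 10x Genomics droplet capture. The methods mention more lung samples per genotype, which were not analysed here. The comparison asks which genes differ between lung cells with and without GFI1, and with 1 library per label no difference has a replicate check. No test was made, each level is given with an exact Poisson interval and each ratio with an exact conditional binomial interval, both at 95%, and these cover counting error only.

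After the cell filters 10495 cells were kept under the GFI1 KO label, with a median of 11076 UMIs, and 19342 under the WT label, with a median of 6217. Gfi1 itself stood at 2.92 CPM (UMIs per 1000000 gene UMIs, 2.61 to 3.24) in the KO-labelled cells and 2.90 (2.64 to 3.17) in the others, so the gene's 3′ tags did not tell the libraries apart, and whether these tags lie outside the deleted part is not given in the sources used here. The libraries are therefore named by their labels. Cells were placed in classes by markers (at least 4 of the class's 8 markers with a UMI, 5 for plasma and plasmacytoid dendritic cells), and the names below mean cells like the type named. In every class with 50 or more cells in both libraries, at least 6 of 8 markers were seen in at least 20% of the cells. For the CD4, CD8 and γδ T cell classes these were the 8 markers of T cells as a whole, Trac, Trbc1 and Trbc2 among them. They do not show the subset, which rested on Cd4, on Cd8a and Cd8b1, or on Trdc. The gate itself asked for 4 of the same 8 markers, so this count is no separate check of the classes. The libraries shared 74 cell barcodes, of which 18 fell in the same class. Cells with markers of more than 1 lineage, 554 under the KO label and 1988 under the WT label, were left out of the classes. Cells that Scrublet called doublets, 358 and 1146, were kept in the main values and left out in an alternative.

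The promoters of many of these genes are known to be read by NRF1, by ETS family factors (NRF2, also called GABP, among them) and by YY1. RefSeq start windows (250 bases before to 50 after the start, GRCm38.p6) matched 78 of the 96 nuclear members by symbol. The NRF1 core GCATGCGC, searched on both strands like the others, lay in the windows of 12 of the 78 (15.4%) against 3.05% of all 27025 genes. The ETS core CCGGAAG lay in 19 (24.4%) against 9.93%, and the YY1 core AAGATGGC in 11 (14.1%) against 3.19%. The hypoxia response core ACGTG was about as frequent among the members (24.4%) as among all genes (21.8%), and the full CRE TGACGTCA was held by 4 members (5.13%) against 2.03%. These are counts of letters, not of bound sites. Of the 7 windows that held at least 2 of the first 3 cores, 4 are printed because their genes recur in the comparisons below, on the gene's own strand with the NRF1, ETS and YY1 cores of either strand in capitals.
Sdhb, chr4:140961021-140961320, plus strand: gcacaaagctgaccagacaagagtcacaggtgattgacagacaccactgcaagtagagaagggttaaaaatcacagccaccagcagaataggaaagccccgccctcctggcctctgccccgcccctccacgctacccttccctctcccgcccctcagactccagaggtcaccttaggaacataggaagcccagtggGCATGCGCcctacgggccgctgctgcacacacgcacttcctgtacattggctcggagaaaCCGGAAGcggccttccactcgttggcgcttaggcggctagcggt
Uqcr11, chr10:80406772-80407071, minus strand: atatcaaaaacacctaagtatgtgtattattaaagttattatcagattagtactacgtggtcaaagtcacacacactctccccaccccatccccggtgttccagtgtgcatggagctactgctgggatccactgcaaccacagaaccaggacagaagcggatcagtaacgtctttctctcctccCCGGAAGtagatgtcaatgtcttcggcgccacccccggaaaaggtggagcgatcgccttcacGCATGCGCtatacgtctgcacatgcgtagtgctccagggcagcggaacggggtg
Cox6a1, chr5:115348909-115349208, minus strand: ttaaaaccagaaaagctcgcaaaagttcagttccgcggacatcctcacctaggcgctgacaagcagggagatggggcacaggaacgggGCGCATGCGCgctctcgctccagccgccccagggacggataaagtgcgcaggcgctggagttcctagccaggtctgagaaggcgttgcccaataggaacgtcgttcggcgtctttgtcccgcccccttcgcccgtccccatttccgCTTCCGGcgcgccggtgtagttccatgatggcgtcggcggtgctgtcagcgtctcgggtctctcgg
Atp5j, chr16:84834927-84835226, minus strand: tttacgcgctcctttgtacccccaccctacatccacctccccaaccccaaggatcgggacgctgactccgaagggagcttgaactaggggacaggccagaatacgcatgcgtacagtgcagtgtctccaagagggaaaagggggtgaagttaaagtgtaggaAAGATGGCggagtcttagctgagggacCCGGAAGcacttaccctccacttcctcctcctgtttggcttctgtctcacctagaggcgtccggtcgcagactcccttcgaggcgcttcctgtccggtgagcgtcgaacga
The Sdhb, Uqcr11 and Cox6a1 windows hold an NRF1 and an ETS core, and the Atp5j window holds a YY1 and an ETS core.

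The members took 5.19% of all gene UMIs under the KO label and 4.72% under the WT label. The mitochondrial genes were at nearly the same share in both libraries as a whole (3.45% and 3.43%), and the nuclear members at 1.74% and 1.29%. The libraries differ in their mix of cells, so the comparison was made within 9 classes that had at least 50 cells in each. Levels are summed UMIs per 10000 gene UMIs of a class. A 3′ library gives 1 tag per transcript, and values were not divided by gene length.

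Among the 9 classes the mitochondrial sum was highest in alveolar macrophages under both labels, at 433.1 per 10000 (KO) and 442.7 (WT). B cells (377.5 and 352.7) and CD8 T cells (365.9 and 324.7) came next in both libraries. The lowest class was NK cells under the KO label (240.5) and nonclassical monocytes under the WT label (185.6). The highest class stood 1.80-fold above the lowest under the KO label and 2.38-fold under the WT label.

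The nuclear sum followed another order of classes. It was highest in NK cells (195.9) and classical monocytes (195.7) under the KO label, whose intervals overlap, and in classical monocytes (159.8) under the WT label, and it was lowest in B cells under both labels (117.1 and 106.3). B cells thus combined the lowest nuclear level with one of the highest mitochondrial levels. The order of the 9 classes was similar in both libraries (Spearman rho = 0.90 for mitochondrial and 0.83 for nuclear sums, as a description over 9 classes of the same libraries).

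**Figure D1:**
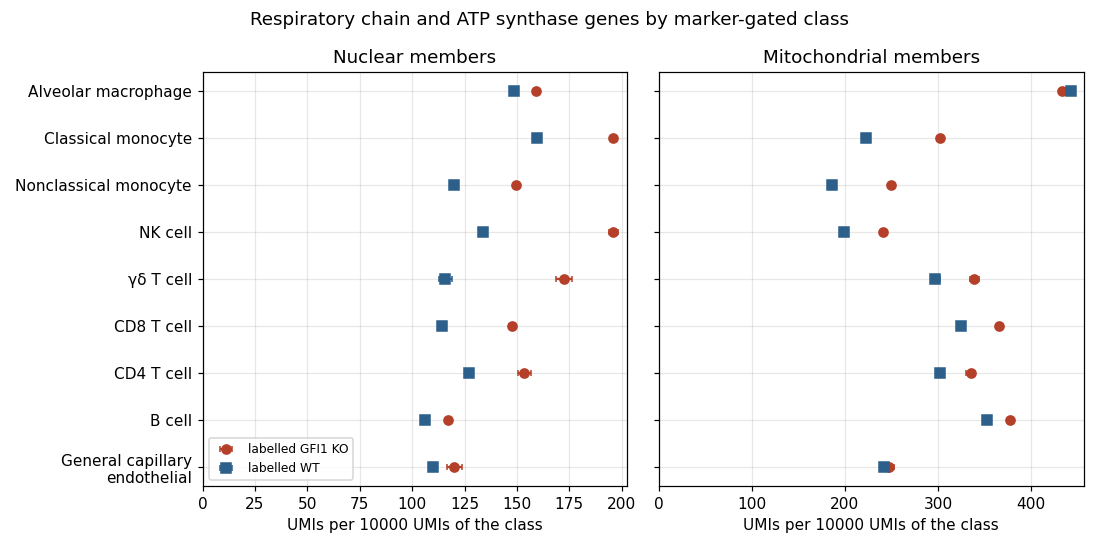
Summed nuclear (left) and mitochondrial (right) members, in UMIs per 10000 UMIs of the class, for 9 marker-gated classes (rows). Circles are the library labelled GFI1 KO, squares the library labelled WT, and bars the 95% Poisson intervals, mostly smaller than the symbols. The nuclear sum lies farther right under the KO label in all 9 classes.

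Among classes too rare under the KO label for a comparison, WT-labelled neutrophils stood lowest, with a nuclear sum of 64.3 per 10000 (63.6 to 65.0) and a mitochondrial sum of 86.8 over 1469 cells. The shortfall was uneven among subunits. Cox8a, a small complex IV subunit, was at 500 CPM, against 721 in WT-labelled NK cells, whereas Atp5g1, which encodes subunit c of the ATP synthase rotor, was at 17.6 against 151 and Ndufa4, a subunit now placed in complex IV, at 54.9 against 363. Under the KO label 34 cells met the neutrophil gate, with all 8 markers seen in at least 20% of them, a median of 12278.5 UMIs against 2981, and a nuclear sum of 145.0 (141.3 to 148.6). With so few cells, and of such different depth, these values are only set side by side.

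The nuclear sum was higher under the KO label in 9 of 9 classes. The ratio was largest in γδ T cells, 172.3 per 10000 (168.7 to 176.0, 69 cells) against 115.9 (112.8 to 118.9, 73 cells), or 1.49 (1.44 to 1.54). NK cells followed with 1.46 (1.44 to 1.48), over 229 and 2033 cells. CD8 T cells stood at 1.29 (1.28 to 1.31), nonclassical monocytes at 1.24 (1.23 to 1.26), classical monocytes at 1.22 (1.21 to 1.24) and CD4 T cells at 1.21 (1.18 to 1.24). The smallest ratios were in B cells, 1.102 (1.091 to 1.114), general capillary endothelial cells, 1.09 (1.06 to 1.12), and alveolar macrophages, 1.069 (1.065 to 1.073). The lymphocytes of the T and NK lineages and the monocytes therefore differed more between the libraries than the B cells, endothelial cells and macrophages did, with no replicate against which to measure that spread.

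The mitochondrial sum did not follow the same order. It was higher under the KO label in 8 of 9 classes, most in classical monocytes, 302.5 against 223.1 per 10000 or 1.36 (1.35 to 1.37), and nonclassical monocytes, 1.35 (1.33 to 1.36). NK cells stood at 1.21 (1.197 to 1.224), γδ T cells at 1.14 (1.12 to 1.17), CD8 T cells at 1.13 (1.12 to 1.14), CD4 T cells at 1.11 (1.09 to 1.13), B cells at 1.07 (1.06 to 1.08) and capillary endothelial cells at 1.02 (1.00 to 1.04). Alveolar macrophages were lower, at 0.978 (0.976 to 0.980).

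As a result the balance of the genomes differed by class. The ratio of mitochondrial to nuclear UMIs, KO over WT label, was above 1 in both monocyte classes, 1.11 (1.09 to 1.12) and 1.08 (1.065 to 1.099), and below 1 in the other 7 classes, from 0.971 (0.960 to 0.982) in B cells to 0.828 (0.814 to 0.841) in NK cells and 0.767 (0.737 to 0.799) in γδ T cells. Cytosolic ribosomal protein genes were summed for comparison, since they too are short, abundant transcripts. Their ratio was 1.45 in NK cells, next to the nuclear members' 1.46, but 0.987 in γδ T cells and 0.930 in CD4 T cells, where the nuclear members stood at 1.49 and 1.21.

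**Figure D2:**
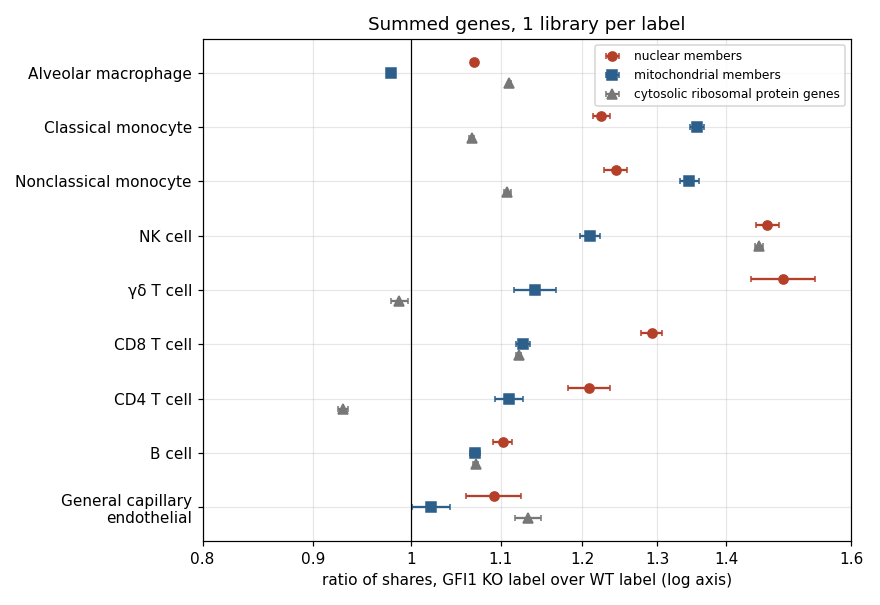
Ratio of summed shares, GFI1 KO label over WT label (log axis), for nuclear members (circles), mitochondrial members (squares) and cytosolic ribosomal protein genes (triangles) in 9 classes, with 95% counting intervals. Nuclear members exceed mitochondrial members in 7 classes, and the monocyte classes show the opposite order.

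Each of the 5 complexes had a nuclear ratio above 1 in NK, γδ T and CD8 T cells and nonclassical monocytes, among other classes. In NK cells it was 1.435 (1.402 to 1.467) for complex I, 1.29 (1.17 to 1.41) for complex II, 1.46 (1.397 to 1.517) for complex III, 1.41 (1.38 to 1.45) for complex IV and 1.563 (1.529 to 1.597) for complex V. In γδ T cells complex IV was highest at 1.57 (1.47 to 1.68) and complex I stood at 1.51 (1.42 to 1.61). Ndufa4, counted in complex I by its symbol, stood at 2.02 (1.62 to 2.52) in γδ T cells. The 8 complex I assembly factors, which do not stay in the finished complex, ran in another order, with 1.11 (0.977 to 1.25) in NK cells and 1.29 (0.932 to 1.79) in γδ T cells, but 1.48 (1.35 to 1.62) in classical monocytes and 1.34 (1.09 to 1.64) in capillary endothelial cells. Complex II, the only complex with no mitochondrial subunit, had the lowest nuclear ratio of the 5 complexes in alveolar macrophages (0.998), NK cells, γδ T cells, CD8 T cells (1.101), CD4 T cells (0.953) and nonclassical monocytes (1.12), and the highest in B cells (1.12) and capillary endothelial cells (1.21), and its interval overlapped that of at least 1 other complex in each of these 8 classes but alveolar macrophages.

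In classical monocytes the mitochondrial subunits exceeded their nuclear partners in each shared complex. Complex I stood at 1.3995 (mitochondrial) and 1.29 (nuclear), complex III at 1.63 and 1.14, complex IV at 1.32 and 1.17, and complex V at 1.32 and 1.23. In γδ T cells the order was reversed in each, with 1.15 and 1.51 for complex I, 1.23 and 1.46 for complex III, 1.16 and 1.57 for complex IV, and 1.04 and 1.42 for complex V.

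**Figure D3:**
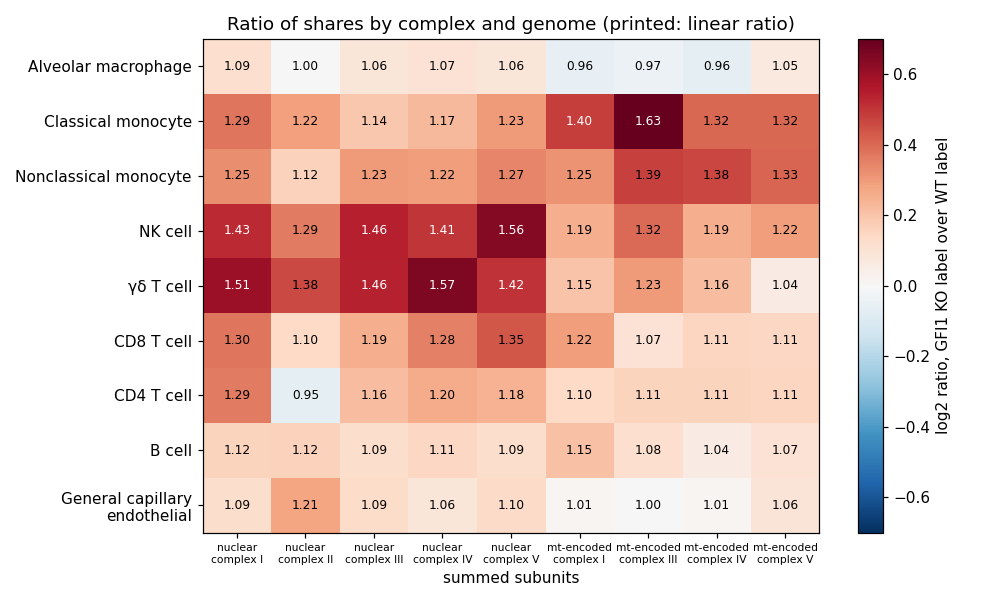
Ratio of summed shares, GFI1 KO label over WT label, for each complex and genome (columns) in 9 classes (rows). Colour gives the log2 ratio and the printed figure the linear ratio. The mitochondrially encoded columns are highest in the 2 monocyte rows, up to 1.63 for complex III, and the nuclear columns in the NK and γδ T cell rows.

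To describe single members, those with at least 30 UMIs over both libraries of a class were counted as higher or lower when the ratio was at least 1.5-fold, beside the share of all genes past the same fold. The genes behind this share had the same UMI minimum but were not matched to the members in abundance. Scarce genes pass the fold more often from counting error alone, most of all in the small classes. In NK cells 38 of 86 nuclear members were higher, against 13.1% of all genes, and none was lower, against 24.5%. The median log2 ratio was 0.56 for the members and -0.14 for all genes. Ndufa12, an accessory subunit of complex I, was at 117.0 CPM against 46.6, a ratio of 2.51 (2.10 to 2.98). Ndufab1, the mitochondrial acyl carrier protein, which also sits in complex I, was at 137.5 against 64.7, or 2.13 (1.81 to 2.48). Both intervals lay wholly above the 1.5-fold line.

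Other NK members above the fold came from every complex. Ndufs8, an iron-sulfur subunit of complex I, stood at 2.10 (1.72 to 2.55), and Sdhb, the iron-sulfur subunit of complex II whose promoter window is printed above, at 180.4 against 96.8, or 1.86 (1.63 to 2.13). Uqcr11 of complex III had the same ratio of 1.86 (1.61 to 2.14), Cox5a of complex IV stood at 1.90 (1.72 to 2.09), and Atp5b, the catalytic beta subunit of the ATP synthase, at 403.7 against 232.4, or 1.74 (1.59 to 1.90). Sdha, the flavoprotein of complex II, went the other way, at 80.9 against 100.3 or 0.806 (0.67 to 0.97), so that Sdha and Sdhb differed in direction within 1 complex.

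Cycling cells were more frequent among KO-labelled NK cells, 12.7% against 2.07% with at least 2 of 8 cycling markers. All 8 markers were higher, and their summed level was 10.4 against 1.91 per 10000. The NK cells also differed in maturity markers. Itgam, gained as NK cells mature, was at 156 CPM against 292, Cd27, carried by less mature NK cells, at 105 against 51.2, and Myc, a growth regulator, at 33.6 against 15.8. Eomes and Il7r, looked at with them, differed less and were slightly lower, at 302 against 319 and 36.1 against 43.1 CPM. The part of maturity in the NK ratio was not tested. Taken apart after the data were seen, the 29 and 42 cycling NK cells had a nuclear ratio of 1.48 (1.44 to 1.52) and the 200 and 1991 other NK cells 1.35 (1.33 to 1.37). Within each library the cycling NK cells were above the others, 239.1 against 178.3 per 10000 under the KO label and 161.6 against 132.4 under the WT label. The mitochondrial ratio was 0.965 (0.940 to 0.990) in the cycling NK cells and 1.24 (1.22 to 1.25) in the others.

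In γδ T cells 76 nuclear members had enough UMIs. Of these 34 were higher, against 22.8% of all genes, and none was lower, against 23.2%. Ndufa1, a small membrane subunit of complex I, was at 278.3 CPM against 85.1, or 3.27 (2.29 to 4.75), from 139 and 41 UMIs. Cox6c of complex IV was at 594.7 against 270.0, or 2.20 (1.79 to 2.73), and Cox5a at 402.5 against 174.5, or 2.31 (1.78 to 3.01). Atp5c1, the gamma subunit that turns inside the ATP synthase, stood at 2.23 (1.65 to 3.04), and Uqcrfs1, the Rieske protein of complex III, at 2.28 (1.403 to 3.792). No member had an interval wholly below 1 in this class.

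The γδ T cells of the libraries were of different kinds. Scart1, a scavenger receptor gene of IL-17-producing γδ T cells, was at 2109 CPM under the KO label and 177 under the WT label, and Cd27, carried by interferon-producing γδ T cells, at 60.1 and 220. The 4 cycling markers with enough UMIs were all higher as well, with 8.70% of KO-labelled and 1.37% of WT-labelled cells cycling.

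Among CD8 T cells 11 of 86 nuclear members were higher, against 8.54% of all genes, and 1 was lower, against 14.5%. The median log2 ratio was 0.37 for the members and -0.09 for all genes, so most members lay above 1 by less than the fold. Atp5j2, a small subunit of the ATP synthase, was at 292.8 CPM against 184.9, or 1.58 (1.45 to 1.73). Ndufaf3, an assembly factor of complex I, stood at 2.21 (1.51 to 3.23) from 53 and 64 UMIs, and Ndufaf5, another, was lower at 0.555 (0.33 to 0.89). Cycling cells were 5.96% and 1.97%, all 8 cycling markers were higher, and without cycling cells the nuclear ratio was 1.219 (1.204 to 1.234).

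CD4 T cells gave 8 higher members of 85, against 13% of all genes, and 2 lower, against 17%. The count of higher members was thus below the share of all genes, although the median log2 ratio was 0.28 for the members and 0.01 for all genes. Ndufa13, also known as GRIM-19, a complex I subunit, stood at 1.57 (1.34 to 1.83) and Atp5j2 at 1.56 (1.34 to 1.82). The lowest was Ndufaf7, a methyltransferase of complex I assembly, with 1 UMI in 101 cells against 44 in 530, or 0.132 (0.003 to 0.77). Cycling cells were 10.9% and 7.36%, but 6 of 8 cycling markers were lower.

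In classical monocytes 12 of 89 nuclear members were higher, against 14.6% of all genes, and 2 were lower, against 16.8%. The medians were 0.32 for the members and -0.04 for all genes. Ndufv3 of complex I was at 122.4 CPM against 69.9, or 1.75 (1.53 to 2.01), Atp5j, a coupling subunit of the ATP synthase whose promoter window is printed above, at 360.6 against 223.0, or 1.617 (1.5002 to 1.746), and Sdhb at 1.51 (1.34 to 1.70). Ndufaf3 stood at 2.02 (1.49 to 2.79) and Ndufaf7 at 1.72 (1.48 to 2.02). Cox6b2, the form of Cox6b known from testis, was lower, at 8.76 against 16.1 or 0.543 (0.41 to 0.74).

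The classical monocytes of the libraries also differed in maturity markers and in number, 4432 cells against 348. Of the 8 markers of immature granule-bearing myeloid cells, 6 had enough UMIs and 5 of these were higher, with a summed level of 2.004 against 0.187 per 10000, led by Prtn3, a serine protease of primary granules, at 177 against 14.2 CPM. Camp and Ngp, of secondary granules, were at or near 0 in both libraries. A UMI of any of the 8 was seen in 68.1% and 12.9% of cells. In the split made after the data were seen, the nuclear ratio was 1.19 (1.17 to 1.22) in cells with such a UMI and 1.198 (1.186 to 1.211) in cells without, and the mitochondrial ratio was 1.42 (1.39 to 1.45) and 1.35 (1.33 to 1.36). Whether a marker UMI is seen depends on depth, and the median was 11891 UMIs per cell against 8813.5.

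Nonclassical monocytes had 6 of 87 nuclear members higher, against 6.67% of all genes, and none lower, against 9.48%. Ndufs8, a core iron-sulfur subunit of complex I, stood at 1.79 (1.47 to 2.18). Ndufaf3 stood at 1.84 (1.25 to 2.78), and Atp5pb, the peripheral stalk subunit b, at 1.53 (1.39 to 1.70). The median log2 ratio was 0.29 against -0.05 for all genes.

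**Figure D4:**
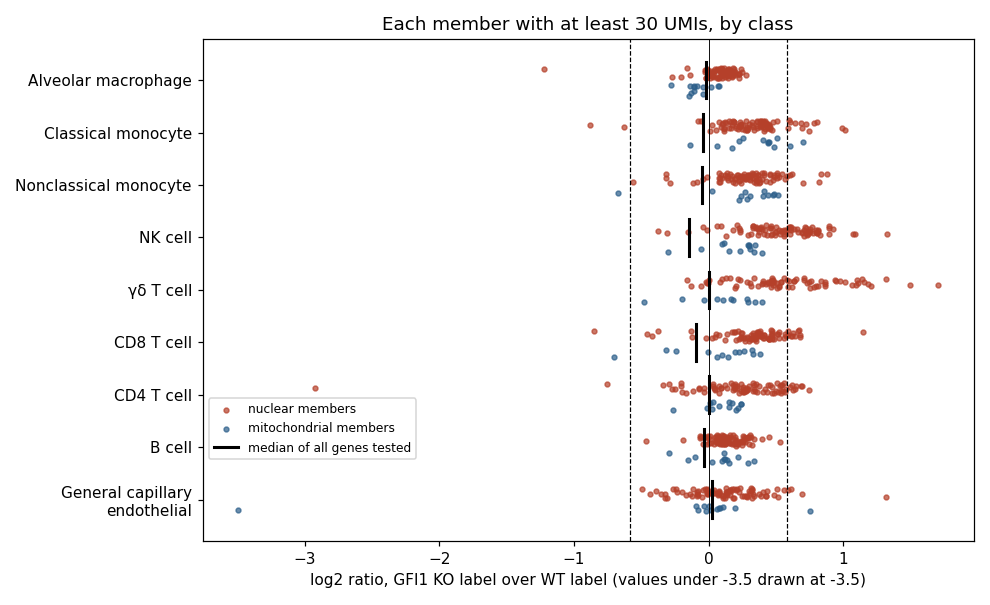
Log2 ratio, GFI1 KO label over WT label, of each member with at least 30 UMIs in a class, with nuclear members as red and mitochondrial members as blue points, a black bar at the median of all genes tested, and dashed lines at 1.5-fold. In NK and γδ T cells the nuclear members lie mostly right of the black bar and many pass the dashed line, while in alveolar macrophages and B cells all nuclear members but Cox4i2 stay within the dashed lines, and mt-Nd6 of capillary endothelial cells, with 0 UMIs under the KO label, is drawn at the left edge.

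Alveolar macrophages had no nuclear member above the fold of 90, against 1.93% of all genes, and 1 below, against 8.02%. The median log2 ratio was 0.10 for the members and -0.02 for all genes, and 75 of the 90 were above 1, against 45.2% of all genes. Uqcrc2, a core protein of complex III, was at 85.1 CPM against 70.2, or 1.21 (1.15 to 1.27), and Ndufa13 at 1.18 (1.14 to 1.22). The 1 below was Cox4i2, from 13 and 52 UMIs. This class had the most UMIs per cell, a median of 13160 and 13655, so small ratios are well measured as counts.

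B cells had no nuclear member past the fold of 86 in either direction, against 5% of all genes higher and 8.58% lower. Sdhb stood at 1.32 (1.17 to 1.48), and 76 of 86 members were above 1, against 45.0% of all genes. Erythroid markers (hemoglobin genes and others of red cells) were at 0.0394 per 10000 under the KO label and 11.3 under the WT label in this class, with all 5 lower under the KO label. All 8 cycling markers were lower as well. Their part in the B cell ratio of 1.102 was not tested.

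General capillary endothelial cells, with 95 KO-labelled cells, had 4 of 88 nuclear members higher, against 12.5% of all genes, and none lower, against 20.7%. Ndufaf4, an assembly factor of complex I, stood at 71.2 against 28.6 CPM, or 2.49 (1.63 to 3.68), from 28 and 291 UMIs. Ndufb8 stood at 1.53 (1.17 to 1.97) and Sdha at 1.505 (1.14 to 1.95). The class median of 0.15 was closer to that of all genes, 0.03, than in any lymphocyte class of the T and NK lineages.

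Several members stood apart in more than 1 class. Cox5a was above the fold in γδ T, NK and CD8 T cells, and stood at 1.43 in nonclassical monocytes, 1.36 in classical monocytes and 1.07 in both B cells and alveolar macrophages. Cox5b, which adjoins it in complex IV, was at 2.10, 1.70, 1.32, 1.402, 1.31, 1.07 and 1.12 in the same order. Of the most abundant nuclear members, Cox4i1 stood between 0.946 (capillary endothelial cells) and 1.42 (γδ T cells), Cox8a between 0.973 and 1.42 in the same classes, and Atp5e, the epsilon subunit, between 1.01 in alveolar macrophages and 1.62 in NK cells. Uqcrh, the hinge protein of complex III, was an exception among monocytes, at 0.961 (0.92 to 1.01) in the classical class where 85 of 89 members were above 1.

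The 3 genes of subunit c encode the same mature protein with different import sequences. Atp5g1 was at 249.5 against 150.9 CPM in NK cells, or 1.65, Atp5g2 at 1.76 and Atp5g3 at 1.68, so the 3 were alike there. In CD8 T cells they stood at 1.598 (1.44 to 1.77), 1.29 (1.21 to 1.38) and 1.13 (1.01 to 1.26), and in classical monocytes at 1.23, 1.32 and 1.01. Cox7a2l, also called Scaf1 and known as a factor joining complexes III and IV, was at 0.915 (0.73 to 1.15) in γδ T cells, where Cox7a2 stood at 1.38 (1.06 to 1.81).

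The UMI counts of the mitochondrial genes did not keep 1 ratio within a class, although the genes are transcribed together from 2 strands. Whether the counts of neighbouring genes, such as the scarce mt-Nd4l beside mt-Nd4, stand for separate transcripts was not tested. In classical monocytes mt-Cytb stood at 1.63 (1.58 to 1.67) and mt-Nd4 at 1.52 (1.47 to 1.57), mt-Co1 at 1.19 (1.18 to 1.21) and mt-Nd4l at 0.907 (0.79 to 1.05). In nonclassical monocytes mt-Co2 led with 4262 against 2988 CPM, or 1.43 (1.39 to 1.46). In alveolar macrophages mt-Co1 was at 7214 against 7978, or 0.904 (0.90 to 0.91), and mt-Atp6 at 9018 against 8574, or 1.05 (1.05 to 1.06), so the sum of 0.978 holds differences in both directions.

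Among lymphocytes mt-Co1 was close to equal, at 0.995 in CD8 T, 0.993 in CD4 T, 0.978 in γδ T, 0.934 in B and 1.07 in NK cells, whereas mt-Co2 and mt-Co3, subunits of the same complex, were above 1 in all 5, with 1.202 and 1.148 in CD8 T cells and 1.32 and 1.22 in γδ T cells. In B cells mt-Nd2 led at 1.26 (1.23 to 1.29), and mt-Nd4l and mt-Nd5 were lower at 0.814 (0.72 to 0.92) and 0.899 (0.85 to 0.95). mt-Nd6, the only protein gene on the other strand, was among the scarcest, at 9.91 and 9.49 CPM in classical monocytes, although in γδ T cells mt-Atp8 (12.0 and 27.0) lay below it (14.0 and 35.3). mt-Nd6 was lower under the KO label in CD8 T cells, 47 UMIs against 204 or 0.615 (0.44 to 0.85). In capillary endothelial cells it had 0 UMIs under the KO label and 162 under the WT label, or 15.9 CPM. That level was 2.09-fold above the 7.63 CPM that 3 counts would give under the KO label. The 3 counts are a set floor and not an interval bound, so this is not a least fold.

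Some members are tissue forms of a common subunit, and these were concentrated in few cell types. Cox6a2, the form of Cox6a known from heart and skeletal muscle, was found in plasmacytoid dendritic cells under both labels, at 807 CPM (643 to 1001, 83 UMIs in 11 cells) and 715 (659 to 775, 599 UMIs in 103 cells). A UMI was seen in 11 of 11 and in 94 of 103 of these cells (91.3%), against 0.131% and 0.272% of alveolar macrophages, which bear more UMIs per cell. The common form Cox6a1, whose window is printed above, was at 165 and 149 in the same cells, so the muscle form was the more abundant one there. Alveolar type 2 cells also held Cox6a2, with 15 UMIs in 5 KO-labelled cells and 7 in 4 WT-labelled cells, numbers too small for a level. In NK cells Cox6a2 had 14 UMIs under the KO label, in 4 of 229 cells, and 15 under the WT label, or 8.71 against 1.56 CPM.

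Cox4i2, the oxygen-responsive form of Cox4, and Ndufa4l2, a hypoxia-responsive relative of Ndufa4, were highest in mural cells, the pericytes and smooth muscle of vessels. In 31 WT-labelled mural cells Cox4i2 was at 2555 CPM (2310 to 2818), above Cox4i1 at 539 (430 to 668), and Ndufa4l2 at 956 (809 to 1123), and each was seen in 26 of the 31 cells. The KO-labelled library had 1 such cell. Capillary endothelial cells held far less and alike under both labels, 38.2 (21.4 to 62.9) and 30.7 (27.4 to 34.3) for Cox4i2 and 17.8 (7.16 to 36.7) and 15.9 (13.6 to 18.6) for Ndufa4l2.

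Cox6b2 was found mainly in alveolar macrophages among the 9 classes compared. It was at 59.8 (57.1 to 62.6) and 55.5 (53.5 to 57.5) CPM there, with a UMI in 44.1% and 43.7% of cells, against 0.215% and 0.456% of B cells at lower depth. WT-labelled fibroblasts held 29.9 (23.0 to 38.2), and the 4 WT-labelled alveolar type 2 cells held 6 UMIs. Cox7a1, the muscle form of Cox7a, reached 5.99 and 7.22 in alveolar macrophages, Cox8b was counted 1 and 43 times in all cells, and Cox7b2 once, under the WT label.

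**Figure D5:**
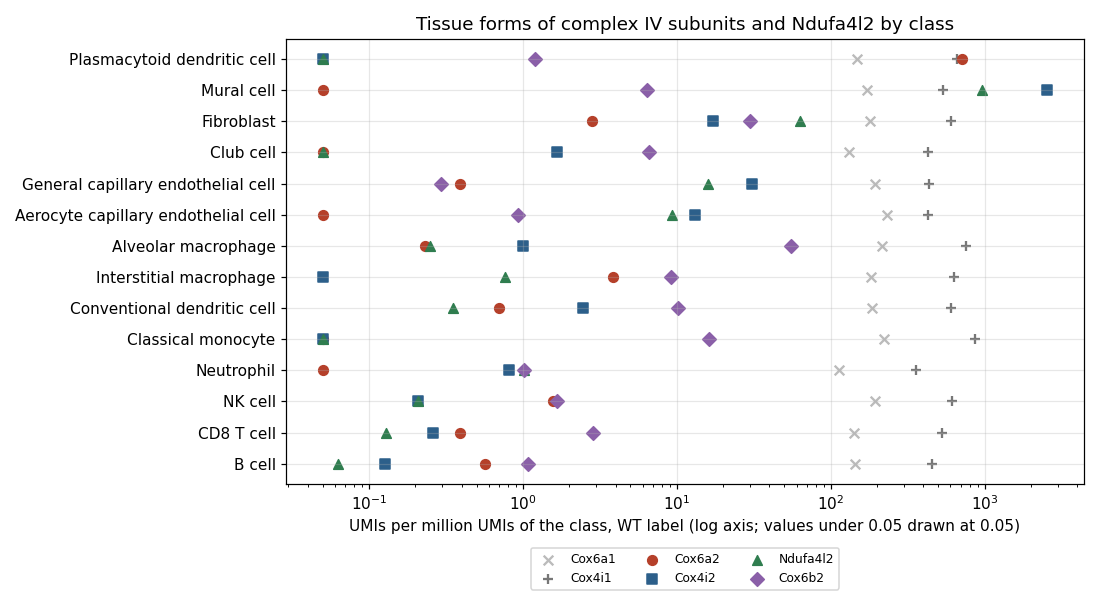
Levels of tissue forms (Cox6a2, Cox4i2, Ndufa4l2, Cox6b2) and of the common forms Cox6a1 and Cox4i1 in CPM (log axis) in 14 classes of the library labelled WT (rows). Cox6a2 reaches 715 in plasmacytoid dendritic cells, Cox4i2 2555 in mural cells, Cox6a1 and Cox4i1 vary far less between rows, and levels at 0 are drawn at the left edge.

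Across the 9 classes compared, and with the mean of both labels as the level, the core subunits Uqcrc2, Ndufs7 and Uqcrc1 varied least, by 1.35-, 1.45- and 1.45-fold from the lowest to the highest class, followed by Ndufv2 (1.5001) and Ndufaf8 (1.52). No range was formed for members with a class at 0 UMIs under both labels, such as the tissue forms Cox6b2, Cox4i2, Cox6a2 and Ndufa4l2, and that of Cox7a1 rests on as few as 1 UMI. Among the others Ndufaf7 had the widest range of mean levels, but its size and its end classes depended on the library. Under the KO label Ndufaf7 ran from 1.61 CPM in CD4 T cells, a single UMI, to 93.6 in classical monocytes, and under the WT label from 10.5 in CD8 T cells to 55.5 in nonclassical monocytes. Both monocyte classes held the highest Ndufaf7 levels under each label. Ndufaf4 was highest in capillary endothelial cells under the KO label, at 71.2 CPM, and about level between B cells (28.8) and capillary endothelial cells (28.6) under the WT label. Ndufaf2 varied by 3.7-fold and Ndufb1 by 3.6-fold in their mean levels.

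Genes that work beside the members were counted the same way from lists. Of 78 mitochondrial ribosomal protein genes, which make the proteins that translate the 13 mitochondrial messages, 30 were higher and none lower in NK cells, beside 13.1% and 24.5% of all genes, with a median log2 ratio of 0.50. In γδ T cells 20 of 47 with enough UMIs were higher and 3 lower (0.47), beside 22.8% and 23.2% of all genes. In classical monocytes 21 were higher and 1 lower (0.47), beside 14.6% and 16.8%, and in alveolar macrophages and B cells none passed the fold (0.12 and 0.17). The electron carrier Cycs and the complex III subunit Cyc1, both outside the symbol rule, were at 1.59 and 1.86 in NK cells. Surf1 and Uqcc2, assembly factors of complexes IV and III, passed the fold in 4 classes each. The other assembly factors on their list are not given here. No share of all genes is given beside this count of classes, so it is not read as an excess.

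The genes of the tricarboxylic acid cycle, which feeds electrons to complexes I and II, had medians from -0.23 in γδ T cells to 0.19 in classical monocytes. The medians of all genes in these 2 classes were 0.004 and -0.04. Glycolysis genes had a median of 0.97 in γδ T cells (10 of 13 higher, 1 lower, beside 22.8% and 23.2% of all genes), 0.52 in NK cells (8 of 17 higher, 3 lower, beside 13.1% and 24.5%) and 0.45 in CD8 T cells (6 of 17 higher, 1 lower, beside 8.54% and 14.5%), and -0.01 in alveolar macrophages. Pgam1 passed the fold in 6 of 9 classes, with 125.7 against 60.2 CPM in NK cells, and Gapdh in 5, at 2.51 in NK cells. These counts of classes too have no share of all genes beside them.

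Regulators of mitochondrial biogenesis, taken as a list, did not have a raised median, but single regulators differed in direction. Their median log2 ratio was at most 0.01 in every class, and Nrf1, the activator whose core is marked in the windows above, was at 103.9 against 159.3 CPM in NK cells, or 0.652, and at 0.687 in γδ T, 0.659 in CD8 T, 0.677 in CD4 T and 0.695 in classical monocytes. Ppargc1a, a coactivator of mitochondrial genes, was higher in NK cells, at 86.5 against 27.9 CPM. Myc, also on the list, was higher there too, at 33.6 against 15.8 CPM. Other regulators on the list are not given singly here. Tfam, which packages and transcribes the mitochondrial genome, came from a separate list of genes for its upkeep and transcription. It stood at 1.54 in NK cells and 1.25 in B cells. Its values in other classes and the other genes of that list are not given here.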

How the data were processed

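The authors deposited raw counts of UMIs per gene and cell for both libraries, made with Cell Ranger 9.0.1 on GRCm39 (also named mm39) per the submitters' processing notes. The members and lists were chosen with earlier results of these data known, and the gate rule was set after the data were seen. Following the methods, cells with under 500 UMIs, under 200 genes or over 20% mitochondrial UMIs were removed. The methods also drop mitochondrial, ribosomal and Gm- genes, which was done here only as an alternative, since the mitochondrial members would be lost. Cells were gated by markers: at least 4 (5 for 2 classes) of 8, at least 1 more than any other class, and no passing class of another lineage. T cell subsets were set by Cd4, by Cd8a and Cd8b1, or by Trdc. UMIs were summed by class and label (Python 3.11.15, scipy 1.17.1). Doublets (Scrublet) and clusters (Leiden, 39 in number) were made with scanpy 1.11.5 for alternatives. Other alternatives changed the denominator, the marker gate, the cell filters, the range of UMIs per cell, the fold, the UMI minimum and the scaling, took the mean of cell shares, or left out doublets or cycling cells, and 4 splits of classes were added after the data were seen, of which that of γδ T cells is not reported here. No model was fitted, since each label has 1 library. Members named are the mitochondrial genes, paralog families, Sdha to Sdhd, the 10 most abundant nuclear members, the 2 highest and 2 lowest by the interval bound nearer 1 in classes of at least 200 cells per label, and the widest and narrowest ranges over classes. Others named (Atp5b, Uqcr11, Uqcrfs1, Ndufs8, Cox5a, Atp5j, Ndufaf3 and the like) and the examples from the smaller classes were chosen after their values were seen. The ratio and its interval were tested on simulated data with Poisson counting error only, drawn from the NK cell counts. That simulation held no spread between cells or libraries, so it does not show how well the intervals cover such spread. Promoter windows are from RefSeq, of another build than the counts, and were matched by symbol only.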

Additional observations from a re-analysis of the deposited data

Results flagged for a closer look

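The mitochondrial sum, KO over WT label, lay above 1 in 8 classes and below 1 in alveolar macrophages, so the classes differed in direction. The ratio was 1.36 in classical monocytes, 1.35 in nonclassical monocytes, 1.21 in NK cells, 1.14 in γδ T cells, 1.13 in CD8 T cells, 1.11 in CD4 T cells, 1.07 in B cells and 1.02 in general capillary endothelial cells, against 0.978 in alveolar macrophages. The difference between classes was not tested, since each label has 1 library.

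The ratio of mitochondrial to nuclear members, KO over WT label, lay above 1 in classical monocytes (1.11) and nonclassical monocytes (1.08) and below 1 in B cells (0.971), capillary endothelial cells (0.935), CD4 T cells (0.918), alveolar macrophages (0.915), CD8 T cells (0.872), NK cells (0.828) and γδ T cells (0.767). This difference was not tested either.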

How the results depend on the processing

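No paired analysis was possible because each label has 1 library, and for the same reason no replicate could be left out. The nuclear ratio stayed above 1 in every class under each of the 9 alternatives that gave a value (8 for γδ T cells, which had no cluster of their own), from 1.04 to 1.08 in alveolar macrophages to 1.45 to 1.49 in γδ T cells and 1.35 to 1.57 in NK cells. The mitochondrial ratio kept its side of 1 in every class as well. With joint clusters in place of gates, the mitochondrial to nuclear ratio of CD4 T cells turned from 0.918 to 1.05. An interval below 1 was then seen in 3 classes, against 7 with gates. The 7 include γδ T cells, which gave no value with joint clusters. Among cycling NK cells alone, an alternative chosen after seeing the data, the mitochondrial ratio turned from 1.21 to 0.965. The cause of these changes was not tested. The highest class over the lowest for the mitochondrial sum became 2.08 (KO label) without ribosomal, mitochondrial and Gm- genes in the denominator, and 2.20 (KO) and 3.14 (WT) in cells of 3000 to 10000 UMIs, and that for the nuclear sum became 1.88 (KO) with the first. Over all classes, 113 pairs of a nuclear member and a class were higher and 6 lower at 1.5-fold. NK cells gave 38 of the 113 and γδ T cells 34. By class, 1.93% (alveolar macrophages) to 22.8% (γδ T cells) of all genes were higher at this fold. Lower were 8.02% (alveolar macrophages) to 24.5% (NK cells). At 2-fold, where fewer pass by construction, 18 pairs were higher and 2 lower, and with at least 100 UMIs 3 were lower. Divided by the median ratio of all genes, 148 pairs were higher. No share of all genes is given beside these last counts, so they are not read as an excess. Depth limits the classes under 200 cells most, where a member's interval often spans 1.5-fold, and tissue forms near 0 cannot be ranked between classes. What 1 mouse, 1 dissociation and 1 library per label share cannot be told apart from the label.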
